A study of Mus musculus with 10 samples.

Results

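Transcripts of the receptors for the fast transmitters glutamate, GABA and glycine were compared between adult mouse retina and newborn mouse cortex. The set holds 38 genes of the 13840 named on the array: receptor subunit genes chosen by symbol (Gria, Grin, Grik, Grid, Grm, Gabr, Gabbr and Glr families) and a few genes for proteins that bind these receptors (Neto1, Cnih2, Cnih3, the delphilin gene Grid2ip and the gephyrin gene Gphn). Where a gene had several probes, the probe with the highest mean log2 intensity over all 10 arrays stood for it. Grm6 was left out by the choice of genes. The label given to the set fits its members by name; what each probe detects was not checked beyond the platform annotation.

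The groups were adult retina of C57/B6 mice (a pool of 350 mice, 5 arrays) and cortex taken on postnatal day 1 (a pool of 19 mice, 5 arrays), which the study used as its common comparison RNA. Both were total RNA, measured on a single-channel Applied Biosystems array, and the series compared how array platforms repeat. The sample descriptions call the cortex mice C57/B6 and the series text calls them Swiss-Webster, and the retina titles carry the letters MRP1 without saying what they mean. Tissue, age and possibly strain therefore changed together and cannot be told apart. The 5 arrays of a tissue repeat 1 pool, so the errors below are those of the measurement and say nothing of the spread between mice. In bulk RNA, fewer cells of a type and less RNA per cell cannot be told apart.

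The array medians as deposited were 836 to 987 in retina and 1255 to 1341 in cortex, so the log2 intensities below are quantile-normalized. No detection flag was used. As a yardstick for dim signal, 747 probes for olfactory receptors were taken, and a gene is called dim in a tissue when its mean log2 intensity there was at or below the 95th percentile of these probes (10.77 in retina, 10.65 in cortex). Marker genes followed the labelled tissues. All 6 photoreceptor, 4 bipolar cell, 6 amacrine and horizontal cell, 4 ganglion cell and 5 Müller glia markers measured were higher in retina, and all 5 cortical projection neuron and 5 forebrain interneuron markers were lower. Of these, Lhx1, an amacrine and horizontal cell marker (1.48), was dim in both tissues and its arrays overlapped. The summed intensity of the bipolar cell markers ran between 600713 and 745111 on retina arrays, against 25237 to 29378 on cortex arrays. For the cortical projection neuron markers it ran between 10084 and 12902 on retina arrays, against 500113 to 523950 on cortex arrays. In retina, 5 of 6 markers of the retinal pigment epithelium were higher too, while the sixth, Ttr, was lower. With Ttr included, the summed intensity of this list was lower in retina. It ran between 428368 and 465048 on retina arrays, against 819510 to 954097 on cortex arrays. The lens crystallins Cryaa, Cryba1 and Crygs, 3 of 6 lens markers, were higher (lens sum 81016 to 97177 on retina arrays, against 2647 to 3656 on cortex arrays). The other lens markers, Mip (0.03), Bfsp1 (-0.58) and Gja3 (0.28), were dim in both tissues and not called. The oligodendrocyte markers Olig1 and Cldn11 were lower in retina and the other 3 measured were not called. Cldn11 (-1.48) was dim in both tissues and its arrays overlapped. The part of any of these cell types in the receptor differences was not tested.

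Ionotropic receptors are ion channels built from several subunits, and the choice of subunit sets their kinetics, conductance and drug response. Glutamate opens cation channels of the AMPA, NMDA and kainate classes and excites the cell. GABA and glycine open chloride channels and, in mature neurons, usually inhibit it. In the retina, photoreceptors and bipolar cells release glutamate, while horizontal and amacrine cells use GABA or glycine. Many subunits also exchange as neurons mature.

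Most receptor genes that differed were lower in retina. A gene was called when its Benjamini-Hochberg adjusted p in limma, over all 33012 probes, was under 0.05 and its difference at least 2-fold. Of the 38 genes, 5 were higher in retina, 19 were lower and 14 were not called. This is 63.2% called, against 25.4% of all probes. Of the 14411 probes with 1 symbol, 2030 were called higher and 2131 lower. Each receptor gene stood by its brightest probe, which was not done for these backgrounds. The 5 higher genes were Grik1, Gabrd, Gabrr1, Gabrr2 and Glra1. The median difference, retina minus cortex on the log2 scale, was -1.002 over the 38 genes and -0.01 over all probes. The retina and cortex arrays did not overlap in 26 of the 38 genes, against 40.5% of all probes.

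Brightness sets what can be read from these counts. Dim in both tissues were 10 genes, of which 9 were not called (Grin2c, Grin3b, Gabra6, Gabre, Gabrp, Gabrq, Glra3, Glra4 and Grid2ip) and 1, Grid1, was called lower. Of all 16992 probes dim in both tissues, 1978 were called, a similar share, so this count says nothing particular about the 10 genes. Above the yardstick in both tissues were 15 genes, with Grik1 higher, 9 lower and 5 not called (Gria3, Grin2d, Gabbr1, Glrb and Gphn). Of all probes above the yardstick in both tissues, 29.0% were called, 13.9% higher and 15.1% lower. The arrays did not overlap in 13 of these 15 genes, against 71.7% of those probes. In the remaining 13, 1 tissue was dim: cortex for 4 of the 5 genes that were higher, and retina for 9 of those that were lower. For these the size of the difference rests partly on signal in the dim range. All 13 were called, but the sorting itself favours this, because it puts their tissues on either side of the yardstick. Over all probes, 8379 of 33012 were called. They include 3608 of the 12454 above the yardstick in both tissues and 1978 of the 16992 dim in both. The other calls fell on probes dim in 1 tissue. The 13 calls are therefore not read as a trait of the receptor genes. A difference taken to the yardstick of the dim tissue was -2.17 for Grik2, -1.84 for Gabrg1 and -2.29 for Cnih3. For the others of these 13 genes it is given below beside the measured one. The median SD over 5 arrays was 0.148 in retina and 0.0902 in cortex for the 28 genes above the yardstick in at least 1 tissue, and 0.586 and 0.38 for the 10 dim in both.

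**Figure D1:**
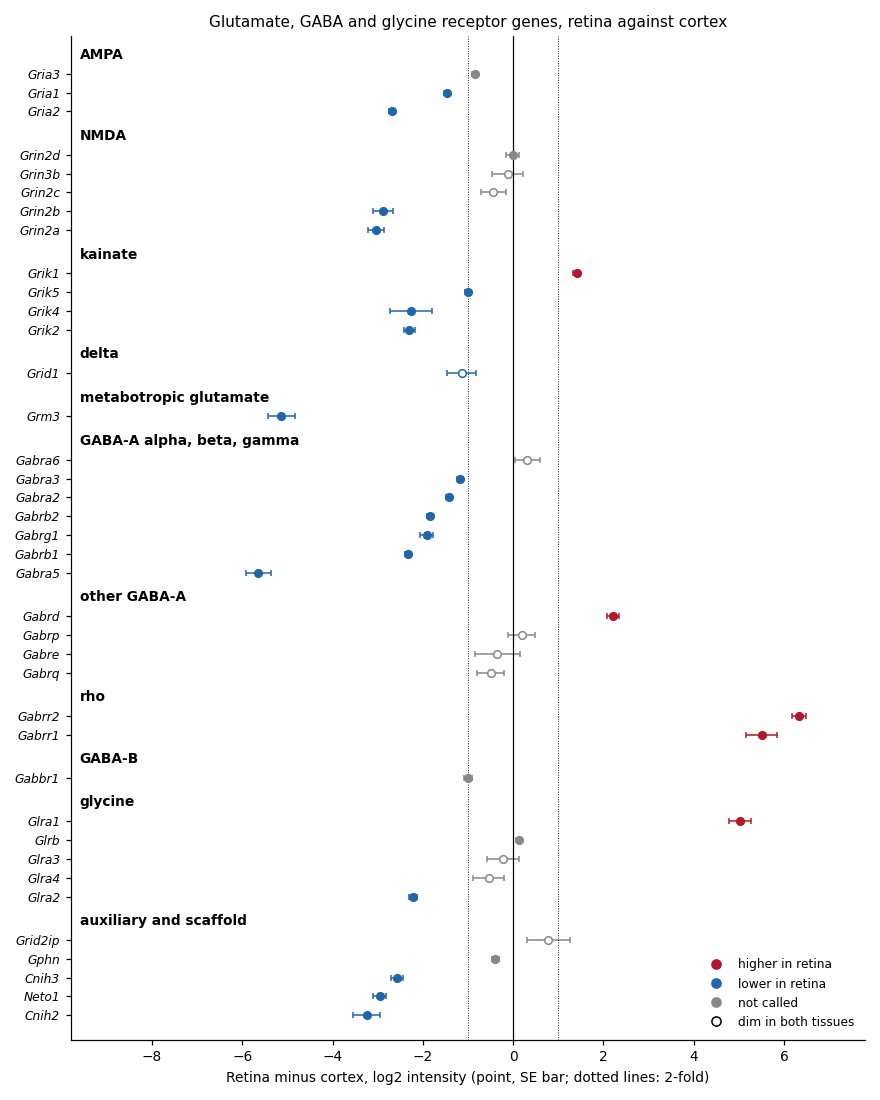
Retina minus cortex difference in log2 intensity (horizontal axis; point with limma SE bar) for the 38 receptor genes, grouped by receptor class, with dotted lines at 2-fold. The 5 genes higher in retina (red) run from 1.41 for Grik1 to 6.33 for Gabrr2, the 19 lower genes (blue) reach -5.65 for Gabra5, and open points mark the 10 genes dim in both tissues.

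**Figure D2:**
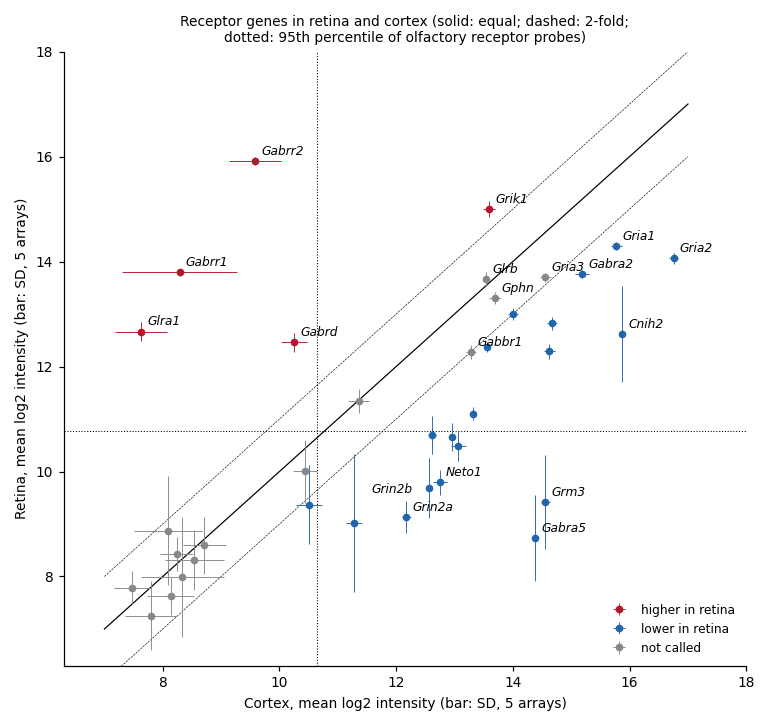
Mean log2 intensity of the same 38 genes in retina (vertical axis) and cortex (horizontal axis), with SD bars over 5 arrays, the line of equality, dashed 2-fold lines and dotted lines at the dim yardstick of each tissue. Gabrr2, Gabrr1, Glra1 and Gabrd lie above the equality line and left of the cortex yardstick, and Grm3 and Gabra5 lie below the retina yardstick.

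AMPA receptors carry most fast excitation, and all 3 measured subunit genes had lower values in retina. Gria2, whose edited RNA makes AMPA channels nearly impermeable to calcium, was at 13.92, 14.10, 14.21, 14.07 and 14.01 on retina arrays 1 to 5 and at 16.67, 16.80, 16.69, 16.76 and 16.85 on cortex arrays 1 to 5. The tissues did not overlap, and the arrays of a tissue lay within 0.3 log2 units of each other. The difference was -2.69 (SE 0.057, limma adjusted p = 2.85e-16). Gria1, the subunit best known from activity-dependent trafficking at cortical and hippocampal synapses, was at 14.38, 14.36, 14.21, 14.31 and 14.22 in retina and at 15.80, 15.76, 15.89, 15.62 and 15.76 in cortex. Here too every retina array lay below every cortex array, and the difference was -1.47 (SE 0.055, limma adjusted p = 4.53e-13). A second Gria1 probe differed by -1.82 (SE 0.055). Gria3 averaged 13.70 ± 0.08 in retina, against 14.55 ± 0.09 in cortex (SD over 5 arrays). The arrays did not overlap, but at -0.85 (SE 0.059) the gene fell short of 2-fold. It was called when tested against 1.5-fold and when the arrays were left unnormalized (-1.23).

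NMDA receptors need both glutamate and a co-agonist, and admit calcium. Of 5 measured subunit genes, the GluN2 subunit genes Grin2a and Grin2b were lower in retina and 3 were not called. These 2 subunits are known to replace each other at maturing forebrain synapses, where Grin2b comes first. Grin2a was at 9.34, 8.76, 9.15, 9.52 and 8.92 in retina and at 12.23, 12.15, 12.29, 12.10 and 12.11 in cortex. Every retina array was in the dim range. The difference was -3.04 (SE 0.18, limma adjusted p = 1.98e-10), or -1.40 to the yardstick. This rests on 1 of 3 Grin2a probes. The other two were dim in both tissues, with differences of 0.13 (SE 0.39) and -0.07 (SE 0.39), and with the mean of the 3 probes the gene was no longer called (-0.99). Grin2b was at 9.97, 9.78, 10.24, 9.68 and 8.73 in retina and at 12.63, 12.58, 12.58, 12.53 and 12.50 in cortex. Again all retina arrays were dim and below the cortex arrays, and the difference was -2.88 (SE 0.22, limma adjusted p = 4.95e-09), or -1.79 to the yardstick. Whether one of the pair shifted more than the other was tested on the per-array difference between the 2 probes. Grin2a minus Grin2b differed by -0.16 between retina and cortex (exact 2-sided permutation p = 0.54 over all assignments of the arrays, Benjamini-Hochberg adjusted p = 0.54 over 2 pairs), with an SD of 0.55 in retina and 0.058 in cortex (n = 5). The result depends on the probes: both were dim in retina, and with the mean of the 3 Grin2a probes the shift was 1.89 (exact permutation, adjusted p = 0.00794). Grin2d, a subunit of slow NMDA receptors, averaged 11.35 ± 0.23 in retina, against 11.36 ± 0.18 in cortex (SD over 5 arrays), a difference of -0.01 (SE 0.14). Grin2c, known from cerebellar granule cells, and the glycine-binding subunit gene Grin3b were dim in both tissues, at -0.44 (SE 0.27) and -0.12 (SE 0.34).

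Kainate receptor genes went both ways. Grik1, which encodes a kainate receptor subunit that OFF bipolar cells use to read the photoreceptor signal, was the one ionotropic glutamate receptor gene of 13 called higher in retina. Its values were 15.05, 14.91, 14.79, 15.19 and 15.04 in retina and 13.46, 13.58, 13.55, 13.65 and 13.72 in cortex. All were far above the yardstick and the tissues did not overlap. The difference was 1.41 (SE 0.072, limma adjusted p = 2.63e-11), which is 2.65-fold. Its close relative Grik2 was at 11.01, 10.55, 10.57, 10.32 and 10.81 in retina and at 12.92, 12.95, 13.03, 12.92 and 12.93 in cortex. The retina values straddled the yardstick, and the difference was -2.30 (SE 0.12, limma adjusted p = 4.51e-11). The other two kainate genes encode high-affinity subunits that work only together with partners such as Grik1 or Grik2. Grik4 scattered widely in retina, at 7.41, 10.13, 10.36, 7.94 and 9.24, against 11.14, 11.33, 11.20, 11.21 and 11.49 in cortex. Its difference was -2.26 (SE 0.46, limma adjusted p = 0.000517), but only -0.50 to the yardstick. Grik5 averaged 13.00 ± 0.11 in retina, against 14.00 ± 0.08 in cortex (SD over 5 arrays). Its difference of -1.005 (SE 0.065) sat at the 2-fold minimum: the call was lost with median scaling (-0.85), with an offset before the log (-0.96), and without retina replicate 3 or 5 or cortex replicate 3 or 5 (-0.97 to -0.99).

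Grid1 encodes a delta receptor, which resembles ionotropic glutamate receptors but acts mainly in synaptic adhesion. It was at 9.33, 9.85, 9.11, 8.28 and 10.25 in retina and at 10.74, 10.54, 10.64, 10.43 and 10.17 in cortex. Retina array 5 lay above cortex array 5, and both means were dim. The difference of -1.14 (SE 0.32, limma adjusted p = 0.00717) was not called without retina replicate 4 (-0.87), with an offset before the log (-0.72) or when tested against 1.5-fold.

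Grm3, the one metabotropic glutamate receptor gene of the set, encodes a G protein-coupled receptor that lowers cyclic AMP in neurons and astrocytes. It was at 9.92, 10.003, 7.85, 9.49 and 9.84 in retina and at 14.60, 14.49, 14.61, 14.46 and 14.61 in cortex. Retina was dim on every array, lowest on array 3, while the cortex arrays agreed to within 0.2. The difference was -5.13 (SE 0.30, limma adjusted p = 1.69e-10), or -3.78 to the yardstick. Grm6, the metabotropic receptor of ON bipolar cells that was left out of the set, was at 15.14 to 15.46 on the retina arrays, against 7.70 to 8.33 on 4 cortex arrays and 11.57 on cortex array 3.

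**Figure D3:**
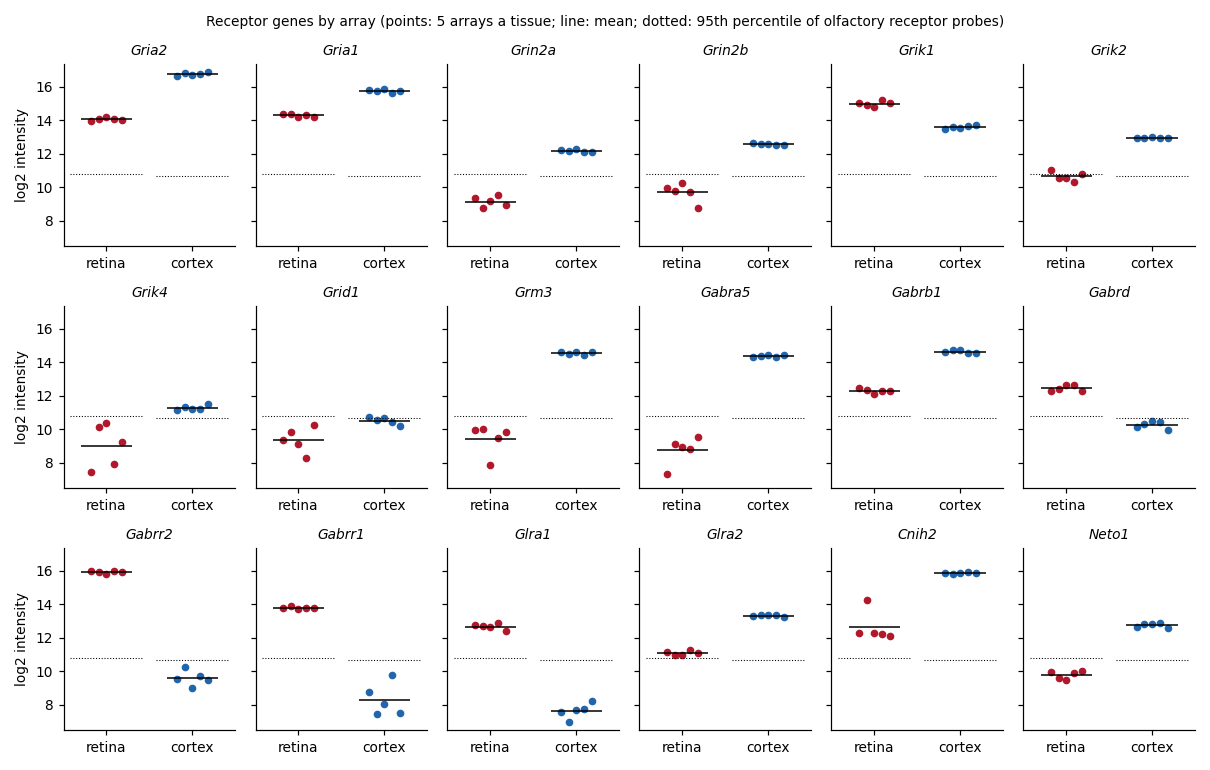
Log2 intensity (vertical axis) on each of 5 retina arrays (red, left) and 5 cortex arrays (blue, right) for 18 receptor genes, with the mean (line) and the dim yardstick (dotted). Retina points lie wholly above cortex points for Grik1, Gabrd, Gabrr2, Gabrr1 and Glra1, overlap them for Grid1, and lie below them for the other 12.

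GABA-A receptors are pentamers, usually of alpha, beta and gamma subunits. Of 7 measured alpha, beta and gamma genes, 6 were lower in retina and none was higher. Gabra5, known from extrasynaptic receptors of hippocampal and cortical pyramidal cells, was at 7.35, 9.12, 8.91, 8.80 and 9.50 in retina and at 14.32, 14.39, 14.45, 14.33 and 14.42 in cortex. All retina arrays were dim and lay more than 4 log2 units below the cortex arrays. The difference was -5.65 (SE 0.28, limma adjusted p = 1.88e-11), or -3.61 to the yardstick. Gabra5 and Grm3 had the lowest measured differences of the 38 genes, and to the yardstick Grm3 was the lower. Gabrb1, a beta subunit gene, was at 12.47, 12.34, 12.08, 12.29 and 12.27 in retina and at 14.61, 14.70, 14.74, 14.54 and 14.52 in cortex. It was above the yardstick on every array, without overlap, and differed by -2.33 (SE 0.074, limma adjusted p = 5.23e-14). The alpha subunit genes Gabra2 and Gabra3 were lower by less, at -1.42 (SE 0.061) and -1.18 (SE 0.064). Gabrb2 differed by -1.85 (SE 0.066) and its second probe by -1.57 (SE 0.15). Gabrg1 differed by -1.92 (SE 0.15), with retina at the yardstick. Gabra6, known from cerebellar granule cells, was dim in both tissues, at 7.79 ± 0.32 in retina, against 7.47 ± 0.32 in cortex (SD over 5 arrays). The levels of the 4 alpha genes are not ranked here, because signals of different probes are not on a common scale.

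Of 4 measured genes for other GABA-A subunits, 1 was higher in retina and 3 were not called. Gabrd encodes the delta subunit, which takes the place of gamma in extrasynaptic receptors that respond to ambient GABA and neurosteroids. It was at 12.29, 12.42, 12.66, 12.64 and 12.30 in retina and at 10.11, 10.30, 10.46, 10.44 and 9.93 in cortex. The arrays did not overlap and cortex was dim. The difference was 2.21 (SE 0.14, limma adjusted p = 4.77e-10), or 1.81 to the yardstick. Gabre, Gabrp and Gabrq, which encode rarer subunits, were dim in both tissues and not called, with differences of -0.35 (SE 0.50), 0.19 (SE 0.30) and -0.50 (SE 0.30).

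The rho subunits form GABA-gated chloride channels without alpha or beta partners, known from the axon terminals of retinal bipolar cells, where they give slow and sustained inhibition. Both measured rho genes were higher in retina. Gabrr2 was at 15.97, 15.94, 15.79, 15.96 and 15.90 in retina and at 9.52, 10.23, 8.99, 9.68 and 9.47 in cortex. Retina arrays agreed to within 0.2, and every cortex array was dim. The difference was 6.33 (SE 0.16, limma adjusted p = 1.94e-15), or 5.27 to the yardstick. Gabrr1 was at 13.80, 13.90, 13.72, 13.80 and 13.77 in retina and at 8.76, 7.42, 8.01, 9.77 and 7.50 in cortex. Cortex values scattered over more than 2 log2 units, all dim. The difference was 5.51 (SE 0.34, limma adjusted p = 3.34e-10), and 3.15 to the yardstick.

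Gabrr2 and Gabrr1 are next to each other on chromosome 4 in the RefSeq gene order, with no coding gene between them. In another group of neighbours, Gabrg1, Gabra2 and Gabrb1 on chromosome 5, with 0 and 2 coding genes between them, were all lower. Glra1 and Gria1, with 1 coding gene between them on chromosome 11, went opposite ways (5.04 and -1.47). In other adjacent pairs with no coding gene between them, the first gene named was called lower and the second was not called. Gria2 was at -2.69 and Glrb at 0.13, Gabrb2 at -1.85 and Gabra6 at 0.32, and Gabra3 at -1.18 and Gabrq at -0.50. Gabra6 and Gabrq were dim in both tissues, so their differences rest on dim signal. The 250 bases before the annotated start are shown for the neighbouring rho genes and, for contrast, for the 2 with the lowest differences, because these 4 carry the widest differences with a sequence in the RefSeq promoter table (build GRCm38.p6). The regions are chr4:33062862-33063111 (Gabrr2, plus strand), chr4:33132306-33132555 (Gabrr1, plus strand), chr7:57510060-57510309 (Gabra5, minus strand) and chr5:9725353-9725602 (Grm3, minus strand). Sequences run 5′ to 3′ on the gene's strand. Capitals mark each CpG and, in Gabrr2, 1 match to TAATCC, read as GGATTA on this strand, the core recognised by homeodomain factors of the Crx and Otx kind.

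Gabrr2: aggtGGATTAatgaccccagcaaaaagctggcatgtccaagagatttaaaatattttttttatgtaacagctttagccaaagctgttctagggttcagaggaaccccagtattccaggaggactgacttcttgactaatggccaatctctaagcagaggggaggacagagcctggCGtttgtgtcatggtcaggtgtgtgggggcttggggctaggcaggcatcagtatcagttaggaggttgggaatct

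Gabrr1: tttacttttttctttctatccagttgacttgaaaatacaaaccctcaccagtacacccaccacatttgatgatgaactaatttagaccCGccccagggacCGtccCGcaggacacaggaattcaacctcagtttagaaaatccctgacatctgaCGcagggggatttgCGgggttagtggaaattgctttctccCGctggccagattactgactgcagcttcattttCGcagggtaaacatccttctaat

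Gabra5: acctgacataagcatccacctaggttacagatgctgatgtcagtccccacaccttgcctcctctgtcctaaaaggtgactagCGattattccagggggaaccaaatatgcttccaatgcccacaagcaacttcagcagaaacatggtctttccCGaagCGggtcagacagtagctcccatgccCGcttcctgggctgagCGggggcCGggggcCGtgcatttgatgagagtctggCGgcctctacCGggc

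Grm3: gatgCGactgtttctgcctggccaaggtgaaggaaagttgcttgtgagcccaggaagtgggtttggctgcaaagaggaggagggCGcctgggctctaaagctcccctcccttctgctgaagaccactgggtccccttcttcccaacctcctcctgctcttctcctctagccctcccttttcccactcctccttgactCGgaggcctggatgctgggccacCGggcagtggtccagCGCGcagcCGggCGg

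The Gabrr2 window held 1 CpG, against 7 for Gabrr1, 9 for Gabra5 and 8 for Grm3, and the median of all 32851 windows of this length was 6. The G and C content was 47.6% for Gabrr2 and 46.0% for Gabrr1, against 56.4% for Gabra5 and 62.4% for Grm3. TAATCC on either strand occurred in 2 of 34 windows of the 29 genes of the set that the table holds, Gabrr2 (bases 5 to 10 of the sequence above) and Gabra2, which was lower in retina. It occurred in 6.25% of all windows. A match is only a string of letters, and binding was not measured.

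Gabbr1 encodes the GABA-binding subunit of the G protein-coupled GABA-B receptor. It averaged 12.28 ± 0.13 in retina, against 13.28 ± 0.09 in cortex (SD over 5 arrays), without overlap. The difference of -0.999 (SE 0.078, limma adjusted p = 7.36e-09) fell just short of the 2-fold minimum. It was called without any one of retina replicates 1, 2 and 4 or cortex replicates 3, 4 and 5 (-1.01 to -1.03), in the test against 1.5-fold, and without normalization (-1.39).

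Glycine receptor alpha genes split. Glra1, the alpha subunit of mature spinal glycine receptors that retinal neurons also use, was at 12.75, 12.70, 12.61, 12.88 and 12.39 in retina and at 7.53, 6.97, 7.70, 7.76 and 8.19 in cortex. Every cortex array was dim. The difference was 5.04 (SE 0.24, limma adjusted p = 1.22e-11), or 2.02 to the yardstick. Glra2, the alpha subunit known from immature neurons and from amacrine cells, was at 11.14, 10.99, 10.99, 11.29 and 11.10 in retina and at 13.32, 13.34, 13.36, 13.33 and 13.25 in cortex. It was above the yardstick on all 10 arrays and differed by -2.22 (SE 0.084, limma adjusted p = 4.85e-13). The difference between the Glra1 and Glra2 probes, compared between tissues, shifted by 7.25 toward Glra1 in retina (exact 2-sided permutation p = 0.00794, the smallest that this design can give, Benjamini-Hochberg adjusted p = 0.0159 over 2 pairs). Every retina array lay above every cortex array for Glra1 and below every cortex array for Glra2. The smallest p was therefore fixed in advance, and the test adds nothing to the differences of the 2 genes. The Glra1 signal of cortex was dim, and with an offset before the log the shift was 5.31. Glra3 and Glra4 were dim in both tissues, at -0.22 (SE 0.37) and -0.54 (SE 0.34).

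The subunit and scaffold that anchor glycine receptors were not called. Glrb encodes the beta subunit, which joins alpha subunits and binds gephyrin. It was at 13.52, 13.72, 13.87, 13.67 and 13.57 in retina and at 13.55, 13.52, 13.57, 13.50 and 13.57 in cortex. The tissues overlapped, with a difference of 0.13 (SE 0.065, limma adjusted p = 0.122), and without normalization the sign turned (-0.25). Gphn, gephyrin, the scaffold under glycine receptors and many GABA-A receptors, averaged 13.30 ± 0.11 in retina, against 13.69 ± 0.10 in cortex (SD over 5 arrays). Its difference of -0.39 (SE 0.069) passed the p threshold but not the fold minimum, and it was -0.78 without normalization and -0.24 with median scaling.

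The auxiliary subunit genes Cnih2, Cnih3 and Neto1 were lower in retina. Cnih2 and Cnih3 encode cornichon proteins, which slow the closing of AMPA receptors. Cnih2 was at 12.26, 14.26, 12.29, 12.20 and 12.11 in retina and at 15.89, 15.81, 15.86, 15.90 and 15.89 in cortex. Retina array 2 stood about 2 log2 units above the other retina arrays but still below every cortex array. The difference was -3.25 (SE 0.30, limma adjusted p = 5.75e-08), and -3.65 without retina replicate 2. Cnih3 averaged 10.49 ± 0.29 in retina, in the dim range, against 13.07 ± 0.12 in cortex (SD over 5 arrays), a difference of -2.58 (SE 0.13). Neto1, an auxiliary subunit of kainate receptors that also associates with NMDA receptors, was at 9.96, 9.62, 9.48, 9.89 and 10.01 in retina and at 12.65, 12.82, 12.82, 12.86 and 12.59 in cortex. Retina was dim on all arrays. The difference was -2.96 (SE 0.14, limma adjusted p = 7.89e-12), or -1.97 to the yardstick. Grid2ip was dim in both tissues, at 8.87 ± 1.04 in retina, against 8.08 ± 0.58 in cortex (SD over 5 arrays); it was not called.

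Proteins that hold, traffic or set the ion gradient for these receptors were read from 2 lists of partner genes. Of 18 measured glutamate receptor partners, 2 were higher in retina and 8 lower, 8 did not pass, and the median difference was -0.73. Of 12 measured partners of GABA and glycine receptors, 3 were higher and 2 lower, 7 did not pass, and the median difference was -0.01. Over all probes 12.1% were called higher and 13.3% lower. The higher glutamate partners were Cacng5, an AMPA receptor auxiliary subunit gene (1.94, SE 0.12), and Dlg1, a scaffold gene of the PSD-95 family (1.57, SE 0.062). Among the lower ones were Camk2b, a subunit of the synaptic calcium and calmodulin kinase (-2.36, SE 0.072), and the postsynaptic scaffold genes Dlgap2 (-1.79, SE 0.23) and Homer1 (-1.73, SE 0.15). The last 2 were dim in retina, and to the yardstick they differed by -0.99 and -1.17. Cacng4, an AMPA receptor auxiliary subunit gene (-1.67, SE 0.088), and Dlgap1, a relative of Dlgap2 (-1.53, SE 0.10), were above the yardstick in both tissues. Cacng8 and Camk2a were called lower from signal dim in both tissues. Dlg4, the PSD-95 gene itself, was at 12.76 ± 0.03 in retina, against 12.88 ± 0.04 in cortex (SD over 5 arrays), a difference of -0.12 (SE 0.061).

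Among the GABA and glycine partners, Slc12a5 was higher in retina by the most. It encodes the chloride exporter KCC2, which sets the low chloride that makes GABA and glycine inhibitory in mature neurons. It averaged 14.14 ± 0.11 in retina, against 11.31 ± 0.17 in cortex (SD over 5 arrays), above the yardstick in both, a difference of 2.84 (SE 0.088, limma adjusted p = 3.68e-14). Slc12a2, which encodes the chloride importer NKCC1 of immature neurons, averaged 13.04 ± 0.18 in retina, against 13.39 ± 0.07 in cortex (SD over 5 arrays), at -0.35 (SE 0.081), short of the fold minimum. Trak2, a gene for a motor adaptor that binds GABA-A receptors (1.49, SE 0.086), and Gabarapl1, of the GABA-A receptor-associated protein family (1.05, SE 0.054), were also higher. Kctd12, an auxiliary subunit gene of GABA-B receptors, averaged 11.88 ± 0.26 in retina, against 15.47 ± 0.13 in cortex (SD over 5 arrays), a difference of -3.59 (SE 0.10, limma adjusted p = 1.69e-14). Gabarap was called lower (-1.22, SE 0.32) from signal dim in both tissues.

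**Figure D4:**
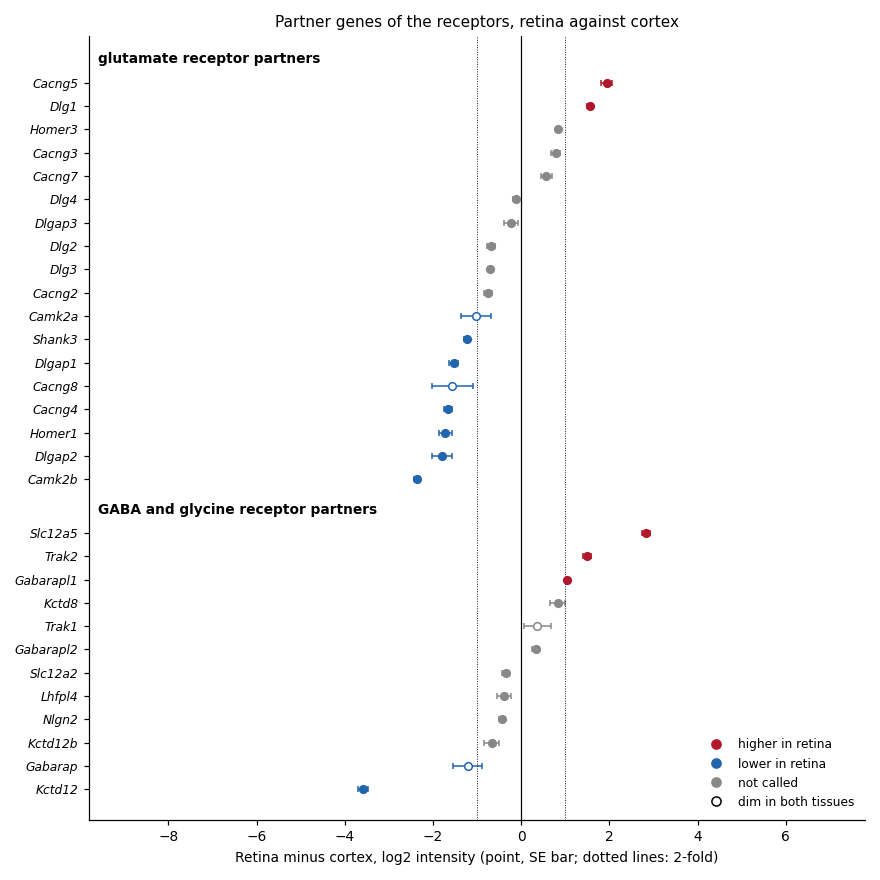
Retina minus cortex difference in log2 intensity (horizontal axis; point with limma SE bar) for 30 partner genes of glutamate receptors and of GABA and glycine receptors, with dotted lines at 2-fold. Slc12a5 (2.84) and Kctd12 (-3.59) lie farthest from 0, and open points are dim in both tissues.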

How the data were processed

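Retina and cortex RNA was measured on 10 single-channel arrays. Per the labels' protocols, 1 µg of total RNA was transcribed to cRNA carrying digoxigenin and read by chemiluminescence. The authors deposited linear intensity values for 33012 probes, with 0 values at or below 0; their software, background correction and normalization are not given in the sources used here. Groups and replicate numbers came from the sample titles.

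Values were log2-transformed and quantile-normalized. All probes were fitted in limma 3.58.1 under R 4.3.3, retina minus cortex (lmFit, eBayes with intensity trend, no further terms), and the 2-sided p-values were adjusted by Benjamini-Hochberg. The script was tested on simulated data. Probes were named from the platform annotation (14411 with 1 symbol, 247 with several, 18354 unnamed here); all 38 member genes matched RefSeq by Entrez ID and 0 symbols changed. SE is limma's. The number of arrays limits the precision.

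Members, lists and tests were chosen with earlier results of these data known. Per-array values were given, in each receptor class, for up to 2 called genes with the largest difference in each direction, and partner genes were named likewise, up to 3 per direction and list; every other receptor gene could be named with its means or difference, and the per-array values of Glrb and the other partner genes named were chosen after their values were seen. Of 44 listed partner genes, 30 were measured. The subunit pair test is an exact permutation over arrays; 2 further planned pairs are not reported here. The RefSeq tables gave promoter sequence and gene order only. Alternatives were other scalings, an offset of 500 before the log, a filter on dim probes, no trend, a test against 1.5-fold, the mean of all probes of a gene, the replicate number as a block, and leaving out each array.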

Additional observations from a re-analysis of the deposited data

Results flagged for a closer look

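In 3 of 76 groups of 5 arrays (38 genes in each tissue), a single array stood apart from the other 4 by Dixon's criterion, where chance flags about 1 in 20 groups. Cnih2 reached 14.26 on retina array 2, while the remaining retina arrays read 12.11 to 12.29. Grm3 dropped to 7.85 on retina array 3, while the remaining ones read 9.49 to 10.003, all in the dim range. Grid2ip reached 9.10 on cortex array 3, while the remaining ones read 7.67 to 7.99, also dim.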

How the results depend on the processing

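Under the 18 alternatives, 21 of the 24 called genes kept their direction and call, and 0 turned direction; Grik5, Grid1 and Grin2a lost the call under some, and Gria3 and Gabbr1, not called as reported, gained it under some, with the values given beside each gene. The cause of these changes was not tested. The count of genes higher in retina was 5 throughout and the count lower was 17 to 21. Of the 30 partner genes, 4 to 6 were higher and 7 to 14 lower, against 5 and 10 as reported. The count lower was 7 with an offset, with the dim filter and against 1.5-fold, and 14 without normalization. The count higher was 4 without normalization and 6 against 1.5-fold. Over all probes, 3987 were higher and 4392 lower, and without normalization these counts were 2474 and 7621. Their median difference was then -0.41, and 0.13 with median scaling. Grin2a minus Grin2b turned sign with an offset before the log (0.0262) and with the mean of all probes of a gene (1.89, past the threshold), where 2 of the 3 Grin2a probes were dim in both tissues. Genes not called turned sign without normalization (Gabra6 -0.0136, Gabrp -0.21, Glrb -0.25) and, for Grin2d, with median scaling (0.0551). Leaving out 1 array gave -0.0754 to 0.057 for Grin2d and -0.26 to 0.0617 for Grin3b.

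Replicate numbers did not pair the arrays: same-numbered retina and cortex arrays had correlations of deviations from -0.02 to 0.03, and 3 of 5 retina arrays correlated best with their own number. With the replicate block, limma called 5 genes higher and 19 lower. The paired permutation of Glra1 minus Glra2 gave the same 7.25 with an adjusted p of 0.125, where 32 sign changes of 5 pairs cannot reach the threshold. Signal over background was not given, which limits the dim genes.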
